A study of Arabidopsis thaliana with 14 samples.

Results

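Of the 10 mitochondrial genes described here, 4 were the listed parent of circular RNAs (circRNAs), and 1 of them, cox2, carried most of the back-spliced reads of the mitochondrial genome. The genes were the respiratory genes cox2, cox1, cox3, cob, atp1, atp9, nad7 and nad9 and the ribosomal RNA genes rrn26 and rrn18, and a circRNA belonged to a gene where the deposited list of all samples named that gene as its parent. By this rule 22 circRNAs were found, of 93 on mitochondrial DNA and of 5861 in all. The genes were selected on the listed numbers of circRNAs and reads of the same table, so these numbers are a description and no test was made on them.

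The RNA came from Arabidopsis thaliana of the wild-type accession Columbia-0, and every sample was depleted of ribosomal RNA and digested with ribonuclease R, an enzyme that degrades linear RNA. The 14 samples were 13 separate ones and 1 mixed one, with 1 library for each condition. Of the 13, 4 were whole plants (stages 1.14, 3.90, 6.50 and 8.00) and 5 were organs at stage 6.50 (siliques, flowers, leaves, stems and roots). The other 4 were plants at stage 3.90 without stress or under drought (300 mM mannitol), salt (200 mM NaCl) or heat (38 °C). In the paper's list of samples these 4 are aerial parts. In the mixed sample, RNA from whole plants of several developmental stages up to senescence was combined in equal parts. All were pooled plants or organs, so no cell type was separated. The list of all samples holds 1 value for each circRNA, without a column for each sample, so conditions were not compared here. Values for each sample outside the deposited lists were not used. The header calls that value a mean of junction read counts, but it is a whole number of at least 2 and equalled the mixed sample's own count for all 1217 circRNAs of that sample. For these it holds the reads of the mixed sample alone, and for the others how it was formed is not given in the sources used here. It is called the number of back-spliced reads below, that is, reads that join the 3′ end of a stretch of RNA to its own 5′ start. The mixed sample's list holds 8987 such reads, and the depth of the other libraries was not analysed here. By the paper's methods the mixed sample was sequenced on another Illumina instrument and with shorter reads than the 13 separate ones. Differences between circRNAs inside and outside its list cannot be told apart from these differences in sequencing.

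Plant mitochondria keep a small set of their own genes, among them core subunits of the respiratory chain and of ATP synthase and the RNAs of the mitochondrial ribosome. The subunits cox1, cox2 and cox3 belong to cytochrome c oxidase (complex IV), cob is apocytochrome b of complex III, nad7 and nad9 are subunits of complex I, and atp1 and atp9 are subunits of ATP synthase. The genes rrn26 and rrn18 encode the RNAs of the large and the small subunit of the mitochondrial ribosome. Introns of plant mitochondrial genes are mostly of group II, which are removed by a mechanism other than that of the nuclear spliceosome and can leave as lariats or circles.

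The 22 circRNAs carried 1688 back-spliced reads, 65.9% of the 2560 on mitochondrial DNA (Wilson 95% interval 64.1 to 67.7). That interval takes the listed values as counts and covers counting error only. The circRNA of cox2 accounted for 1575 of the 1688, or 93.3% (Wilson 95% interval 92.0 to 94.4). Without it the other 21 carried 113 reads, 11.5% of the remaining 985 mitochondrial reads (Wilson 95% interval 9.63 to 13.6), although they were 21 of the other 92 mitochondrial circRNAs. The median member circRNA had 4 reads (95% interval 2 to 6), beside 5 for the other 71 mitochondrial circRNAs (4 to 10) and 5 for all 5861 (4 to 5). Apart from cox2, the members had 2 to 30 reads, the highest being Ath_circ_FC4023 of cox1. By summed reads cox2 was 2nd of 3313 parent genes, rrn18 96th, cox1 148th and rrn26 281st, the rRNA genes having several circRNAs each. The values of the rRNA circRNAs are counts of the mixed sample alone, and how those of cox2 and cox1 were formed is not given. These shares, medians and ranks thus join numbers that may not have been formed alike.

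**Figure D1:**
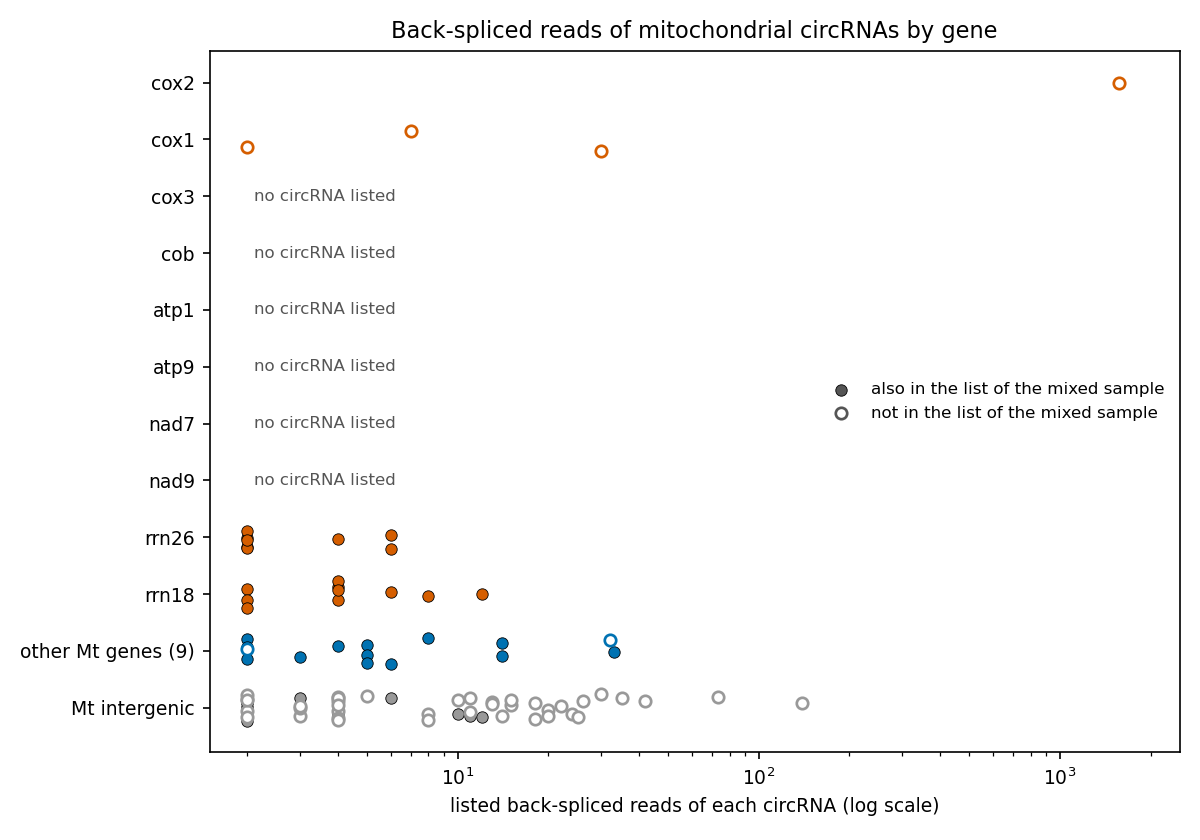
Listed back-spliced reads of each mitochondrial circRNA (log scale) for the 10 genes described, the 9 other mitochondrial parent genes and the intergenic circRNAs, 1 point for each circRNA, filled where the mixed sample also has it. The cox2 point at 1575 reads lies to the right of all others, the next highest being an intergenic circRNA at 139, and 6 genes have no point.

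The cox2 gene (ATMG00160) encodes subunit 2 of cytochrome c oxidase, which takes up electrons from cytochrome c. It had 1 circRNA, Ath_circ_FC4009, on the plus strand of mitochondrial DNA from 40596 to 41930 (TAIR10), a span of 1335 bp, listed as exonic. Its 1575 reads were the 4th highest number of the whole list. Only 3 nuclear circRNAs, all intergenic on chromosome 5, had more, with 2755, 2080 and 1689, so among parent genes named in the list it was the circRNA with the most reads. It made up 2.87% of all 54873 listed reads (Wilson 95% interval 2.73 to 3.01). Mitochondrial DNA as a whole held 4.67% of the listed reads with it and 1.85% without it.

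With this many reads, Ath_circ_FC4009 was not in the list of the mixed sample. Of the 22 circRNAs with at least 100 reads, 8 were in that list. No other listed circRNA overlapped its interval, and none shared its start or its end, so the reads of cox2 rested on a single pair of ends. In the TAIR10.1 reference, whose mitochondrial sequence is not that of the deposited coordinates, the cox2 gene is 2126 bp long and has 2 exons around 1 intron of 1343 bp. The span of the circRNA was thus close to the length of the intron and also shorter than the gene. Which stretch of the gene it covers was not analysed here.

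By the number of circRNAs, the summed reads and the reads of the top circRNA on the log2 scale, the 3 genes most similar to cox2, among 3313 parent genes, were nuclear. They were AT2G01008 at a distance of 2.73 (1 circRNA, 413 reads), AT2G39810 (HOS1) at 3.60 (3 circRNAs, 421 reads) and AT5G09700 at 3.89 (2 circRNAs, 333 reads). The nearest also had its reads on 1 circRNA, but with far fewer of them. That circRNA, Ath_circ_FC4757, was in the mixed sample's list and that of cox2 was not, so their numbers may not have been formed alike.

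The cox1 gene (ATMG01360), which encodes the catalytic subunit of the same enzyme, had 3 circRNAs with 39 reads. Ath_circ_FC4023 lay on the minus strand from 350220 to 350593 (374 bp) with 30 reads. Ath_circ_FC4025 lay on the plus strand from 350268 to 350800 (533 bp) with 2 reads. Ath_circ_FC4029 lay on the plus strand from 350752 to 350904 (153 bp) with 7 reads. None of them was in the mixed sample's list, and both strands occurred within 685 bp of the gene, so cox1 was listed as parent without regard to strand. Whether this also held for the circRNAs of the mixed sample's list was not tested.

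Around these 3, the list held 7 further circRNAs that overlapped them and were marked as intergenic with no gene, with 156 reads, 5 on the minus strand (110 reads) and 2 on the plus strand (46 reads). They were longer, from 590 to 1359 bp, and none lay wholly within the stretch of the listed 3. One of them, Ath_circ_FC4024 with 25 reads, began at the same position as Ath_circ_FC4023 and on the same strand, and ended at 351578. With these overlapping ones added to the 3 named for cox1, there were 10 circRNAs and 195 reads. The reference gene is a single exon of 1584 bp without an intron.

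The other respiratory genes were named as the parent of no circRNA in the list. These were cox3 (ATMG00730), the third core subunit of cytochrome c oxidase, cob (ATMG00220), atp1 (ATMG01190), atp9 (ATMG01080), nad7 (ATMG00510) and nad9 (ATMG00070). Of the 6, nad7 is the longest in the reference, at 6081 bp with 5 exons and 4 introns, and the other 5 are single exons of 225 to 1524 bp. Since the authors kept circRNAs with at least 2 reads, a gene without a listed circRNA may still have had a junction with 1 read. The place of these genes in the deposited coordinates was not established. Circular RNAs marked as intergenic that may lie within them were therefore not looked for.

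Apart from nad9, the genes without circRNAs had more of their sequence matched in the nuclear reference than those with circRNAs. Chromosome 2 of Arabidopsis carries a large insertion of mitochondrial DNA, and a read from an identical copy cannot be told from a mitochondrial one. The reference sequence of each gene was searched against the nuclear chromosomes, whose sequence is that of TAIR10, for matches of at least 95% identity. Of the 6 genes without a circRNA, 5 were matched over 100% of their length on chromosome 2. They were cox3, cob, atp1 and atp9 at 100% identity and nad7 at 99.9%. The 6th, nad9, was matched over 14.5%.

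Of the 4 genes with a circRNA, none was matched over its whole length. The matched share was 15.8% for cox2 and 3.77% for rrn18, and cox1 and rrn26 had no match. No listed nuclear circRNA lay in any of these copies. Among 25 other mitochondrial genes named in the reference, 16 were matched over at least 99% of their length, and none of the 16 had a circRNA. The 3 with a circRNA were nad5, matched over 59.6%, and ccmB and atp4, which had no match. Having a circRNA means here being named as its parent, and circRNAs marked as intergenic were not placed in genes. Whether the nuclear copies had a part in which genes were listed was not tested, and 6 of the other 25 genes had neither a circRNA nor a match of that extent.

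**Figure D2:**
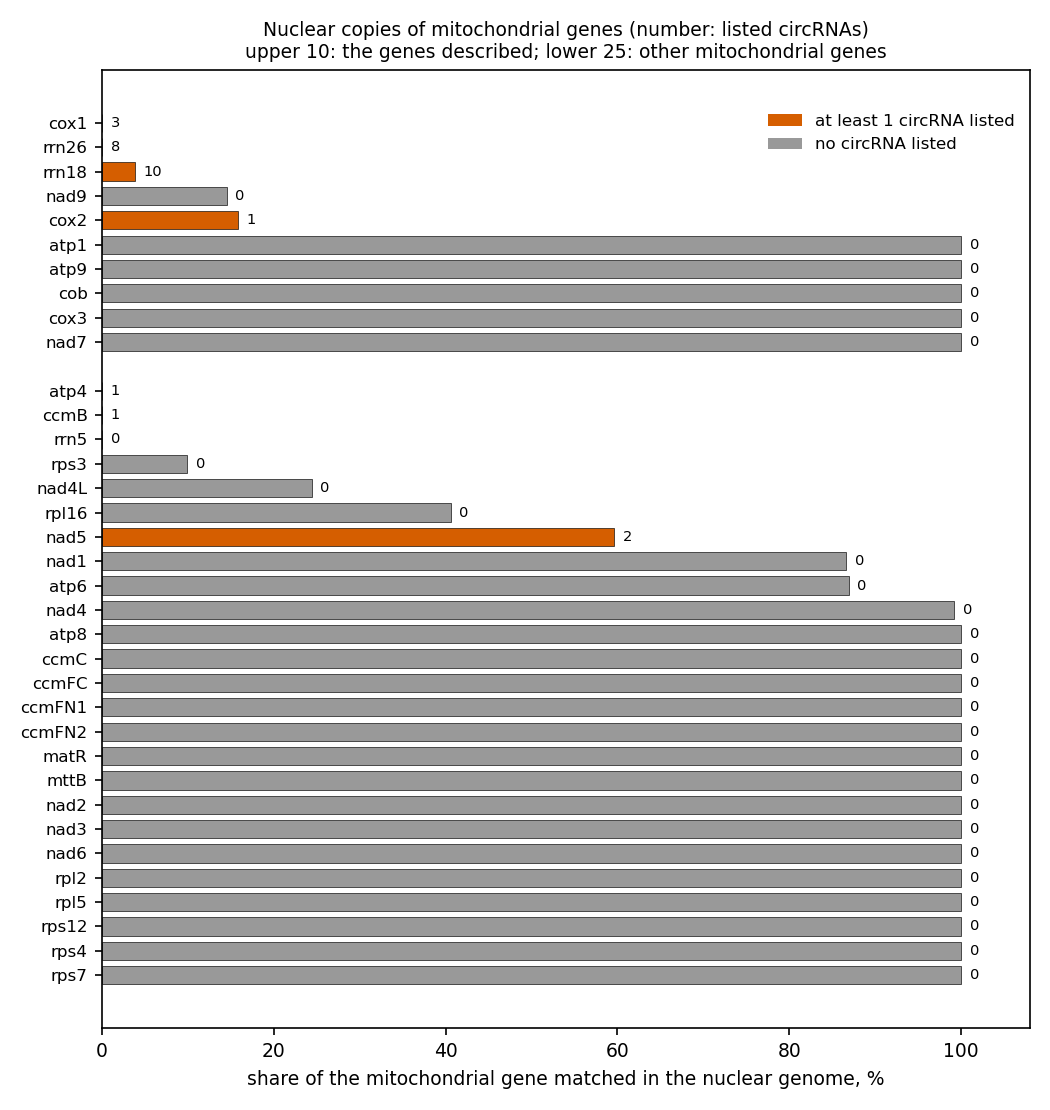
Share of each mitochondrial gene (percent of its length in the reference) matched in the nuclear chromosomes at 95% identity or more, with the number of listed circRNAs at the end of each bar. The orange bars, genes with at least 1 circRNA, reach at most 59.6% (nad5, all its reference entries together), and the bars at 100% are all of genes without one.

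Of the 31 other mitochondrial identifiers that were looked up, for respiratory subunits, cytochrome c maturation factors, ribosomal proteins, a maturase (matR), a transport protein (mttB) and 5S rRNA, 3 had a circRNA, with 4 circRNAs and 44 reads. They were nad5 (ATMG00060, a complex I subunit) with 34 reads on 2 circRNAs, ccmB (ATMG00110, cytochrome c maturation) with 5 reads and atp4 (ATMG00640, an ATP synthase subunit) with 5 reads. The top circRNA of nad5 was listed as intronic. The mitochondrial genome as a whole had 13 parent genes. The highest mitochondrial circRNA outside the members, Ath_circ_FC4002, was listed as intergenic with 139 reads, from 11504 to 12086 on the minus strand. It began just beyond the last interval named for rrn26, which ended at 11487. Its end was also that of Ath_circ_FC4001 and Ath_circ_FC5187, which overlap an rrn26 interval. Whether it lies within rrn26 was not established.

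The rRNA genes had 18 circRNAs with 74 reads, all on the minus strand and all in the mixed sample's list. In that sample they made up 29.6% of 250 mitochondrial back-spliced reads (Wilson 95% interval 24.3 to 35.5) and 0.823% of all 8987 (0.656 to 1.03). These reads came from RNA that had been through ribosomal RNA depletion and ribonuclease R. How far the depletion reached the mitochondrial rRNAs was not analysed here. Of all 5861 circRNAs, 20.8% were in the list of the mixed sample, and of the 22 members 18 were (81.8%), the 4 others being those of cox2 and cox1. Of the other 71 mitochondrial circRNAs, 30 were (42.3%), made up of 13 of the 15 exonic or intronic ones (86.7%) and 17 of the 56 intergenic ones (30.4%). The share of the members was thus near that of the other mitochondrial circRNAs named for a gene.

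The difference between the lists was also one of annotation. Outside the mixed sample's list, 13 circRNAs with 125 reads overlapped the intervals of rrn26 or rrn18, and all 13 were marked as intergenic with no gene, 10 of them on the minus strand. Their median span was 347 bp. Among those in the mixed list, 1 further circRNA, Ath_circ_FC5187, overlapped an rrn26 interval and was listed for ATMG00030. The circRNAs named for rrn26 and rrn18 were thus all from the mixed sample, while others at the same places, outside its list, were named for no gene. With the overlapping circRNAs added to the named ones, rrn26 had 13 circRNAs with 67 reads and rrn18 had 19 with 137. Any circRNAs elsewhere in these genes are not in these counts.

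The rrn26 gene (ATMG00020), the large subunit rRNA, had 8 circRNAs with 26 reads, spread over 5 separate stretches within 1976 bp. At the low end of the stretch, Ath_circ_FC5107 from 9512 to 9664 (153 bp) had 6 reads, Ath_circ_FC5816 from 9522 to 9738 (217 bp) had 2, and Ath_circ_FC5817 from 9736 to 9862 had 2 and was the shortest of all members at 127 bp. Ath_circ_FC5818 from 10141 to 10312 (172 bp) and Ath_circ_FC5819 from 10478 to 10620 (143 bp) stood alone with 2 reads each. Further along, Ath_circ_FC5388 from 10745 to 10976 (232 bp) had 4 reads and Ath_circ_FC5108 from 10764 to 11048 (285 bp) had 6. Ath_circ_FC5820 from 11317 to 11487 (171 bp) had 2.

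None of the circRNAs of rrn26 had the start or the end of another. Together they covered 1141 bp, and 5 of the 8 were at the minimum of 2 reads. These 8 thus formed a thin scatter with no end in common among them. Of the circRNAs that overlapped them without being named for rrn26, Ath_circ_FC4001 and Ath_circ_FC5187 both ended at 12086. That end was shared by each of them with 9 other listed circRNAs.

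The rrn18 gene (ATMG01390), the small subunit rRNA, had 10 circRNAs with 48 reads and the opposite arrangement, with 2 short stretches of nested or staggered intervals. In the first, of 297 bp, 7 circRNAs with 38 reads combined 5 starts with 5 ends, a start being the lower coordinate on either strand. Ath_circ_FC0088 from 361864 to 362121 (258 bp) had 12 reads, the most of any rRNA circRNA. Ath_circ_FC4969 from 361867 to 362031 (165 bp) had 8 and Ath_circ_FC5111 from 361862 to 362054 (193 bp) had 6. These 3 began within a few bases of each other and ended at different places.

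Ath_circ_FC5392 from 361844 to 362116 (273 bp) and Ath_circ_FC5393 from 361852 to 362054 (203 bp) had 4 reads each. Ath_circ_FC5832 from 361852 to 362116 (265 bp) and Ath_circ_FC5833 from 361867 to 362140 (274 bp) had 2 each. Some pairs thus differed at 1 end only and shared the other exactly. The second stretch, of 166 bp, held Ath_circ_FC5394 from 363109 to 363265 (157 bp) and Ath_circ_FC5395 from 363109 to 363270 (162 bp) with 4 reads each, and Ath_circ_FC5834 from 363105 to 363270 (166 bp) with 2.

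All 10 circRNAs of rrn18 had an exact start or end in common with another listed circRNA of the same strand, and none of the 8 of rrn26 did. Among all 5861 circRNAs the share was 30.5%, and among the 22 members 11 (50.0%), the 11th being Ath_circ_FC4023 of cox1. Of the other 71 mitochondrial circRNAs 40 shared an end (56.3%). The ends of rrn18 recurred across lists as well. Of the 9 intergenic circRNAs that overlapped its first stretch, none in the mixed sample's list, 5 with 51 reads had a start or an end in common with a circRNA named for rrn18.

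**Figure D3:**
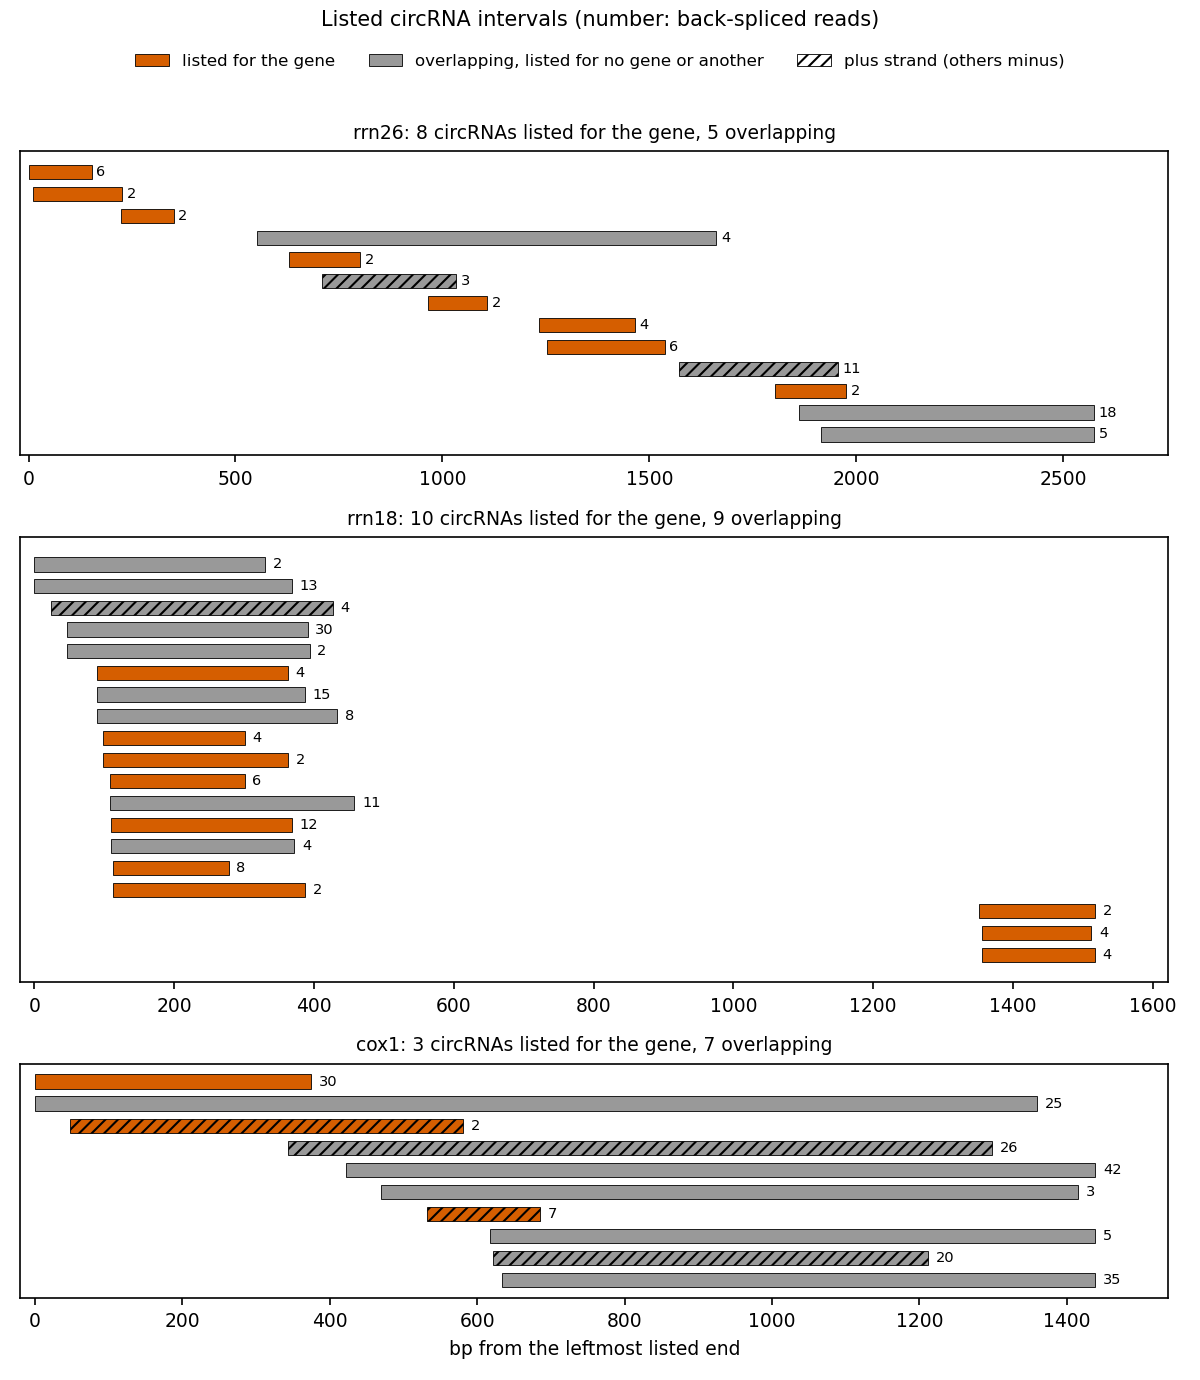
Intervals of the circRNAs listed for rrn26, rrn18 and cox1 (orange) and of those that overlap them but are listed for no gene or for another (grey), in bp from the leftmost listed end, with the back-spliced reads beside each bar and plus strand intervals hatched. The orange bars of rrn18 pile up in 2 short stretches of 297 and 166 bp with shared ends, and those of rrn26 are spread over 5 stretches.

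The sequence of Ath_circ_FC0088, the rRNA circRNA with the most reads, shows how 1 such circRNA lies within another. The study's sheet of circRNA sequences gives it 1 base to the right of the listed interval, as it does 735 of 741 nuclear and chloroplast sequences checked. That sequence matched the reference mitochondrial DNA exactly, at 1 place and nowhere in the nuclear or chloroplast DNA. Shifted back by 1 base, so that its last base comes from the reference, the circRNA spans 126803 to 127060 on the minus strand of the TAIR10.1 mitochondrial sequence (RefSeq), bases 1164 to 1421 of the single exon of rrn18. It reads on the strand of rrn18, 5′ to 3′, with the 165 bases of Ath_circ_FC4969 (positions 91 to 255) in capitals:
Ath_circ_FC0088: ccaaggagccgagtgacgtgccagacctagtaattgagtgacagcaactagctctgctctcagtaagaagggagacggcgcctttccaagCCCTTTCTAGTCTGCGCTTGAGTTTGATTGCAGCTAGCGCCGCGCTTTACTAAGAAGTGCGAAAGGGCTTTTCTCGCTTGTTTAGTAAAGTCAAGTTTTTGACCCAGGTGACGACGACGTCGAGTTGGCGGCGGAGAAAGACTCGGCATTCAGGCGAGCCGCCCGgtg

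Ath_circ_FC4969 thus lacked the first 90 bases of the longer circRNA and stopped 3 bases before its end. The junctions of both are shown because they are what the back-spliced reads cross, with the last 30 bases of each circRNA in lower case and its first 30 in capitals:
Ath_circ_FC0088 junction: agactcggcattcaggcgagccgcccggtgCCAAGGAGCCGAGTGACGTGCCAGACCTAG
Ath_circ_FC4969 junction: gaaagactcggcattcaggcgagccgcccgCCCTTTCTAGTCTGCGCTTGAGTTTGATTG

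On the reference both circRNAs were preceded by AG and followed by GT, as were all 5768 nuclear and chloroplast circRNAs of the list on their listed strand. These are the dinucleotides of a spliceosomal intron's edges, by which find_circ picks junctions and assigns their strand, and rrn18 has no annotated intron. The strand of a circRNA in this list is therefore that of the AG and GT beside it. Both ends could be moved together by 1 base without changing either junction sequence, and the median over the 5768 was 2 bases. The G and C content was 54.3% for Ath_circ_FC0088 and 53.9% for Ath_circ_FC4969. The 10 circRNAs of rrn18 were all listed on the minus strand, which the match showed to be the strand of the gene (10 of 10, Wilson 95% interval 72.2 to 100). Each shared an end with another circRNA, so they are not independent. Whether genes were named with regard to strand in the mixed sample's list was not tested. Of the 9 overlapping circRNAs named for no gene, 8 were on the minus strand and 1 on the plus strand. For the other members the gene's strand in the deposited coordinates was not analysed here.

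Over the members 19 of 22 circRNAs were on the minus strand (86.4%, Wilson 95% interval 66.7 to 95.3), against 47 of the other 71 mitochondrial circRNAs (66.2%, 54.6 to 76.1) and 48.8% of all. All 22 members were listed as exonic, and of the 15 other mitochondrial circRNAs listed as exonic or intronic 14 were on the minus strand (93.3%), a share above that of the members. The 3 on the plus strand were those of cox2 and 2 of cox1. Several circRNAs come from 1 gene, so they are not independent, and the intervals cover counting error only.

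The median span of a member was 198 bp (95% interval 162 to 273), beside 303 bp (249 to 368) for the other mitochondrial circRNAs and 450 bp (438 to 462) for all. The 15 other mitochondrial circRNAs listed as exonic or intronic had a median of 192 bp (140 to 555), about that of the members. Spans went from 127 bp (Ath_circ_FC5817 of rrn26) to 1335 bp (Ath_circ_FC4009 of cox2). The 18 circRNAs of the rRNA genes had a median of 182 bp, close to the 178 bp (172 to 184) of the whole list of the mixed sample. Circular RNAs outside that list had a median of 539 bp overall and 374 bp on mitochondrial DNA. The short span of the rRNA circRNAs thus went together with the list they were in, and the part of the list in it was not tested. The mixed sample also had shorter sequencing reads than the others. The cox2 circRNA was longer than all but 2 of the other mitochondrial circRNAs.

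**Figure D4:**
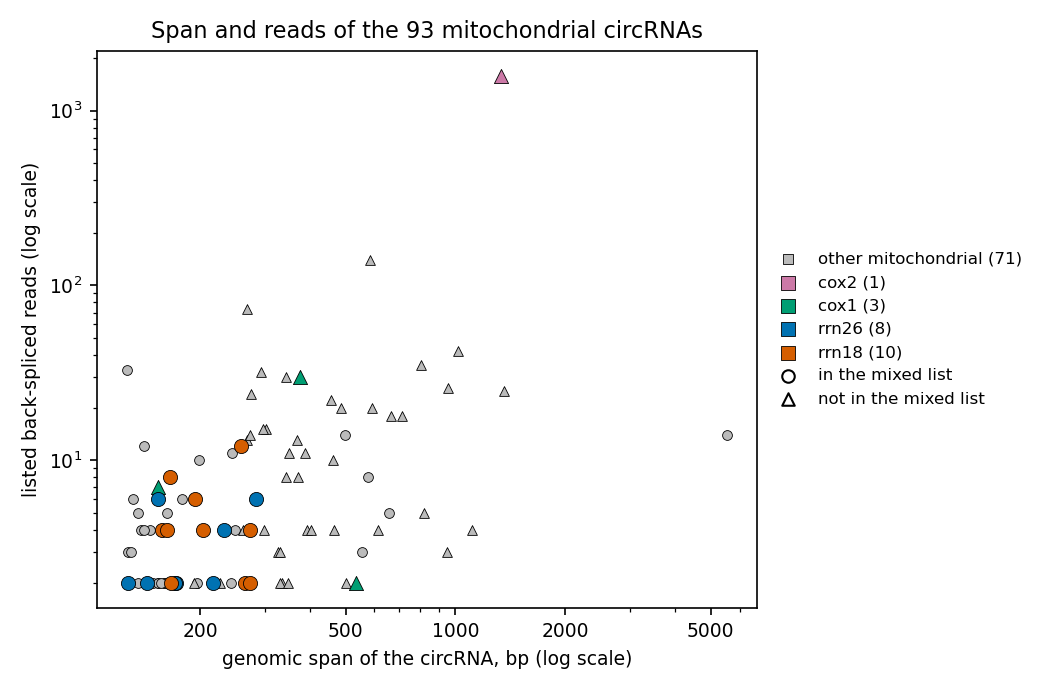
Genomic span in bp against listed back-spliced reads (both log scales) for the 93 mitochondrial circRNAs, coloured by gene, as circles where the mixed sample's list has the circRNA and triangles where it does not. The rRNA circRNAs lie between 127 and 285 bp and at 12 reads or fewer, and the cox2 circRNA lies alone at 1335 bp and 1575 reads.

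The read numbers of the rRNA circRNAs had a further feature in common. All 18 were even, from 2 to 12, whereas 71.7% of the 1217 numbers in the mixed sample's list and 63.6% of all 5861 were even. Of the 30 other mitochondrial circRNAs of the mixed sample, 22 had an even number (73.3%). The 3 of cox1 had 30, 2 and 7, and that of cox2 had an odd number.

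The mixed sample's list also names miRNAs beside its circRNAs, small RNAs that guide the cleavage or repression of complementary transcripts. The paper itself reports putative miRNA-binding sites in only a small proportion of all its circRNAs. How the entries of this list relate to that prediction was not analysed here. Of the 18 circRNAs of the rRNA genes, 14 had at least 1 miRNA listed (77.8%, Wilson 95% interval 54.8 to 91.0), beside 81.2% of the 48 mitochondrial circRNAs and 70.3% of all 1217. By gene it was 7 of 8 for rrn26 and 7 of 10 for rrn18. A share near that of the whole list says nothing particular about the rRNA circRNAs.

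The names followed the position of the intervals. In the first stretch of rrn18, ath-miR3932b-5p was listed for the 4 circRNAs that reach 362116 or beyond and for none of the 3 that end at 362031 or 362054. Ath_circ_FC5833, which reaches 362140, had 14 members of the miR169 family in addition, 15 in all. The 3 circRNAs of the second stretch each had ath-miR390a-5p and ath-miR390b-5p. In rrn26, Ath_circ_FC5388 and Ath_circ_FC5108, which overlap, had the same 6 miRNAs, among them ath-miR162a-5p. These entries are listed names, and binding was not measured here. Overlap did not always bring a shared name, since Ath_circ_FC5816 and Ath_circ_FC5817 of rrn26, which overlap by 3 bases, had none in common.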

How the data were processed

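The members and gene lists were chosen with earlier results of these data known. Reads were cleaned by the authors (NGS QC Toolkit) and mapped with TopHat2 and Bowtie2 (version 2.0.5 in the submitters' processing notes) to TAIR10. The authors then called back-spliced junctions with find_circ at 2 or more reads and named parent genes by overlap. The deposited list of all samples gives 1 score per circRNA, under a header that calls it a mean of junction read counts, without normalization. The deposited list of the mixed sample gives its count of back-spliced reads. The same count scaled to depth was not used. Gene identifiers and circRNA spans (end minus start) are the deposited ones, and 1 was added to each start.

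The 2 lists were joined on chromosome, start, end and strand, with 0 columns of unknown samples. With 1 library for each condition and no value for each sample in these lists, no test was made. Shares have Wilson 95% intervals and medians order-statistic 95% intervals. All 10 genes were found by name in TAIR10.1 (RefSeq), whose mitochondrial sequence differs from that of the deposited coordinates, so no coordinate was carried over. Nuclear copies were searched with blastn 2.17.0 (megablast, e-value 1e-20, at least 95% identity). The strand of the gene was to be taken from the reference for all members, and was set for rrn18 alone by sequence match. Named were all 10 genes and, of their circRNAs, every one of a gene with 3 or fewer or of the mixed sample, the 5 with the most reads, the longest and the shortest, then the highest other mitochondrial circRNA and the 3 genes most like cox2. Calculations used Python 3.11.15, pandas 2.3.3, numpy 2.4.6, scipy 1.17.1 and matplotlib 3.10.9 and were tested on simulated data.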

Additional observations from a re-analysis of the deposited data

How the results depend on the processing

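Of 39 values of 8 results recomputed under other choices, 25 stayed within the 95% interval of the reported value or, for counts, within 1.5 times of it, and 14 moved. Some of the 25 could not move. All members are exonic and at most 1335 bp, so limits to exonic circRNAs or to 2000 bp removed none of them. The strand share was that of rrn18 alone, whose circRNAs were all on the minus strand. Overlapping circRNAs were counted only for genes that already had one. With at least 3 reads 13 member circRNAs were left, 10 of them in the mixed sample. With at least 5 reads 8 were left, 5 of them in the mixed sample, the member share of mitochondrial reads was 68.0%, the share of the top circRNA 95.5% and the median 7.50 reads. The 4 genes with a circRNA kept at least 1 at each of these thresholds. Without the cox2 circRNA the member share fell to 11.5%, and the top circRNA then held 26.5% of the member reads. Among exonic circRNAs alone the member share was 94.1%. With every overlapping circRNA counted there were 43, with 77.1% of the mitochondrial reads. Means in place of medians gave 76.7 reads and 273 bp. Merging near-identical intervals left 18 circRNAs.

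No paired analysis was possible because each condition had 1 library and no result came from a test. Numbers of 2 to 6 reads, which most members had, carry wide counting error, and PCR duplicates cannot be told from separate molecules in these lists. The level of 1575 reads for cox2 rests on 1 circRNA whose reads in each sample were not analysed here.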
